A study of Homo sapiens with 18 samples.

Results

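Foregut endoderm was made from H1, an established human embryonic stem cell line of wild-type genotype, and was studied on day 9 of differentiation, 3 days after a pulse of retinoic acid (RA). The day 9 RA group was given all-trans RA at 2 µM for 24 h up to day 6 and nothing further that the labels name, and the untreated day 9 group was the same endoderm without RA. Each group had 3 libraries, so 6 of the 18 bulk RNA-seq libraries of the series were compared, and none of the 6 had been given CHIR99021 or BMP4. The other 12 libraries were day 6 endoderm with RA, day 6 endoderm without it, and day 9 endoderm given CHIR99021 (a Wnt pathway activator, 2 µM) with BMP4 (50 ng/mL) for 72 h, with or without RA before. All cells came from 1 line, and nothing in the labels ties replicates to separate cultures, so p-values reflect only the spread among these libraries. Levels are CPM, read counts scaled to a common library size. A gene was called where the adjusted p of edgeR's quasi-likelihood test was below 0.05 and the fitted fold was at least 2, and log2 fold changes are RA minus untreated with their standard error (SE).

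RA is a diffusible derivative of vitamin A that enters the nucleus and switches nuclear receptors, bound at target genes, from repression to activation. Along the embryonic gut it is made by mesoderm beside the posterior foregut and helps to set the position of pharynx, lung, stomach, liver, pancreas and duodenum, and in the heart-forming mesoderm it favours the posterior, atrial part. Cells that receive it induce CYP26A1, which destroys RA, and HOX genes at the 3′ ends of their clusters.

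Of 15531 tested genes, 1939 were called higher after RA (12.5%) and 1852 lower (11.9%). The gene lists below were drawn from general knowledge but with earlier results of these data known, and their counts describe only the members that passed the filter on low counts, some of which passed only through the group where they were high. The median log2 fold change over all tested genes was -0.02, and scaling by upper quartiles put it at -0.12. On log2(TPM + 1) values (TPM, transcripts scaled to a fixed total per library) it was 0.26, and 75.1% of calls were then to the higher side, against 51.1% in counts.

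Library totals ran from 6.73 M to 10.75 M counts after RA and from 5.79 M to 25.37 M counts without it, untreated replicate 1 being the largest. Mitochondrially encoded genes held 3.91% to 4.34% of counts after RA and 6.04% to 7.47% without it. The groups also differed in what appears to be a property of the reads. A set of 62 genes was picked because each separated untreated from treated libraries of the series at least 10-fold, with 2 untreated day 6 libraries left out. The separation itself is therefore fixed by the choice. Of the set 59 were pseudogenes with close copies elsewhere (95.2%), against 3.63% of genes averaging 2 CPM or more. On a scale set by these genes and the same libraries, the day 9 RA libraries stood at 98.2% to 98.5%. The untreated ones stood at 0.920% to 1.66%. At day 9 this read kind and RA cannot be told apart. When read kind entered the fit as a covariate, whose effect came from 2 mixed untreated day 6 libraries, 499 genes were called higher and 435 lower. Of the 135 called genes named below by rule 46 stayed called. For genes with no reads in any untreated library the covariate's effect cannot be estimated, so a call kept or lost there is no check. The day 9 libraries with CHIR99021 and BMP4 but no RA had the same read kind as the RA libraries (98.0% to 98.3%), and their levels are given beside several results for that reason. On log2(CPM + 0.1) their mean lay nearer to RA than to untreated cells for 9 of the 86 genes named by rule and called higher, and for 11 of the 49 called lower. These 20 genes were AFP, ALDH1A1, APOA2, CHRD, COL5A2, FGB, GATA5, IGFBP6 and IHH among the higher and ANKRD63, BMP4, CER1, FOXE1, GLI1, KLK10, LIN28A, MKI67, PI15, PTCH1 and SOX2 among the lower. These libraries differ from the untreated ones in both the agents and the read kind, which cannot be told apart there.

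**Figure D1:**
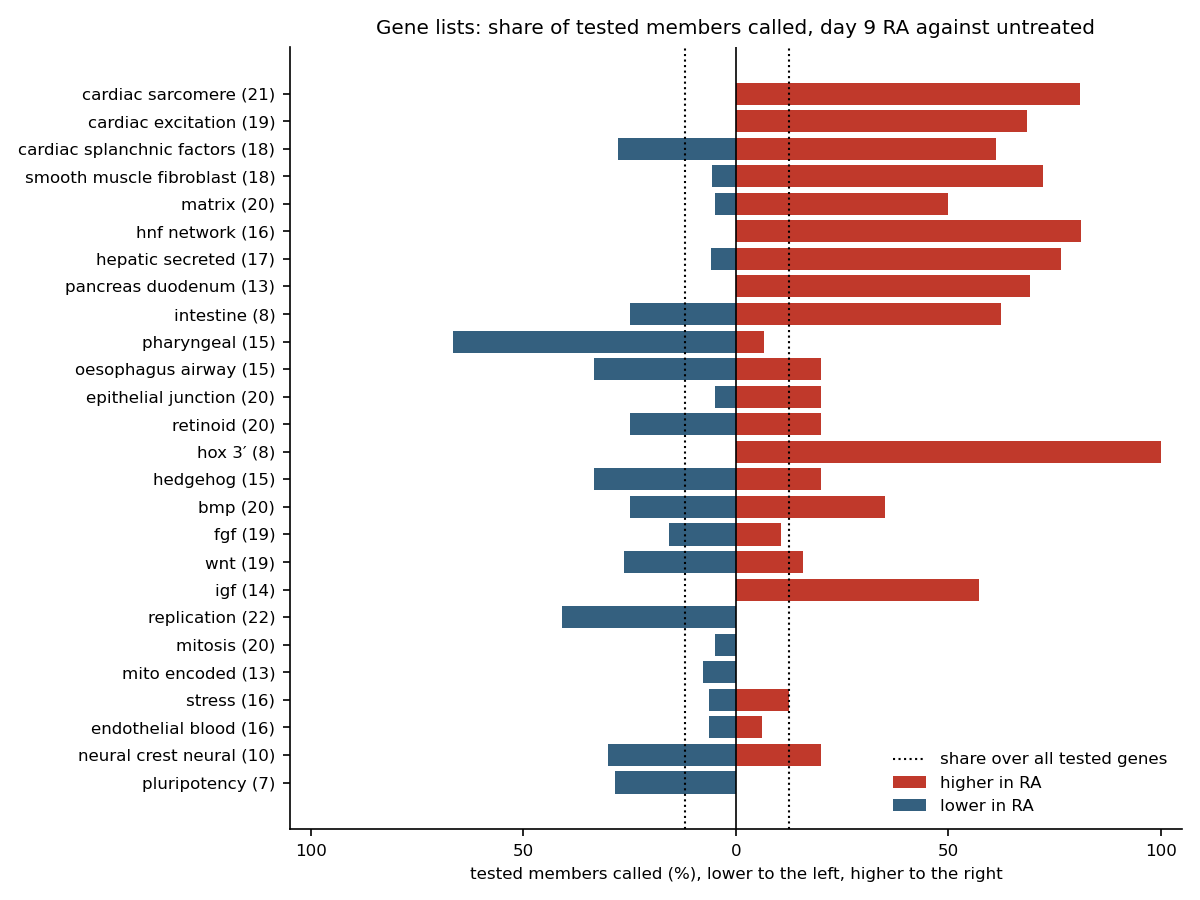
Share of the tested members of each gene list (number tested in brackets) called higher after RA (red, to the right) or lower (blue, to the left), in percent, with dotted lines at the shares over all tested genes, 12.5% and 11.9%. Heart muscle, HNF network and 3′ HOX lists lie far to the right, and the pharyngeal and replication lists lie to the left.

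MYH6, the myosin heavy chain of atrial heart muscle, had 904, 565 and 698 CPM in the RA libraries, against 0.0803, 0.510 and 0 CPM in the untreated ones. PDX1, the transcription factor of pancreas and duodenum, had 20.8, 29.0 and 58.7 CPM after RA and no reads in untreated cells. CDX2, the factor of intestinal identity, had 19.9, 30.2 and 59.3 CPM after RA and no reads in untreated cells. SPINK1, a trypsin inhibitor secreted by pancreas and gut, had 112, 88.0 and 62.7 CPM after RA and no reads in untreated cells. No RA library overlapped an untreated one for any of the 4 genes, and all 4 were called (edgeR adjusted p = 4.4e-11 for MYH6, 2.9e-05 for PDX1, 1.4e-07 for CDX2 and 5.4e-09 for SPINK1). With untreated cells set to 3 counts over the group, PDX1 was at least 460-fold, CDX2 at least 466-fold and SPINK1 at least 1040-fold higher, bounds that cover counting error only. The log2 fold change of MYH6 was 12.24 ± 0.48, and it was 11.39 without untreated replicate 1 and 13.20 without untreated replicate 2, where its few reads lay. The day 9 libraries with CHIR99021 and BMP4 had MYH6 at 0.688 ± 0.19 CPM (SD, n = 3), CDX2 at 0.311 ± 0.0215 CPM, and no read of PDX1 or SPINK1. Under the read kind covariate PDX1 stayed called, while MYH6, CDX2 and SPINK1 did not. PDX1, CDX2 and SPINK1 had no reads in any untreated library of day 6 or day 9. The covariate's effect cannot be estimated for these genes, so neither outcome is a check on them.

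**Figure D2:**
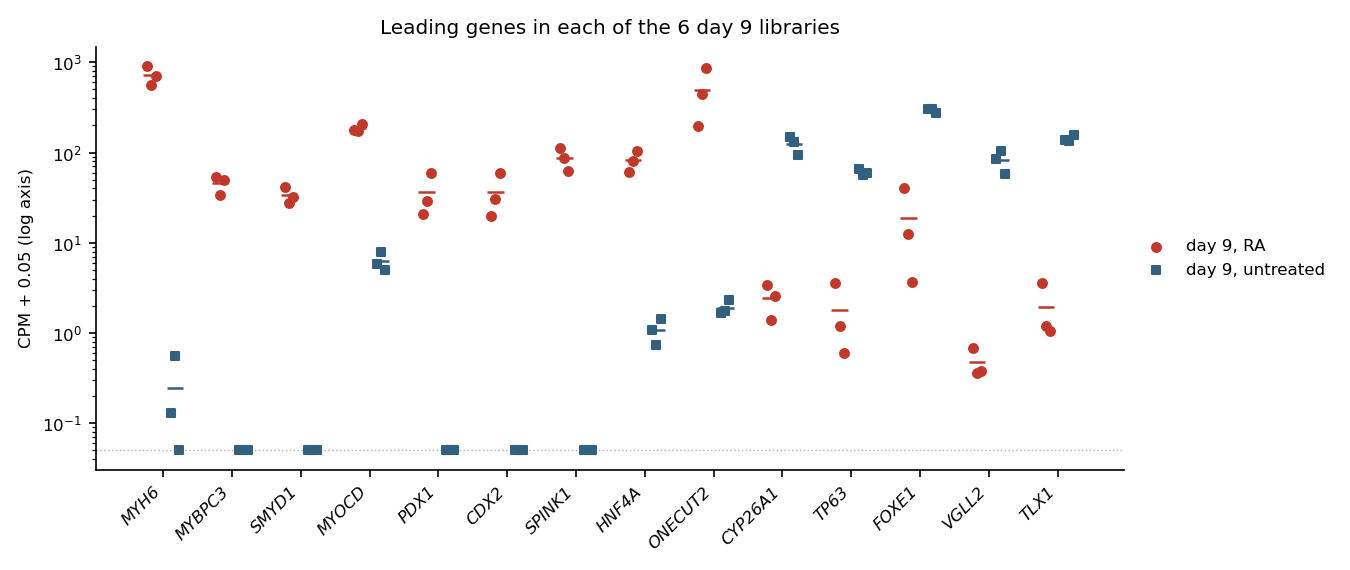
Level of 14 genes in each of the 6 day 9 libraries, as CPM plus 0.05 on a log axis, with RA libraries as red circles left of untreated libraries as blue squares and a bar at each mean. MYH6 through ONECUT2 lie higher after RA and CYP26A1 through TLX1 lie lower, and points on the dotted line are libraries with no reads.

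Heart muscle genes were called higher as a group. Of 23 genes for contractile proteins of the cardiac sarcomere, 21 passed the filter, 17 were called higher and 0 lower, and their median log2 fold change was 5.32. The summed level of the list was 5270, 4296 and 5941 CPM after RA and 271, 203 and 259 CPM in untreated cells. It was 112 to 128 CPM in the CHIR99021 and BMP4 libraries of the same read kind. Whether cells of a type became more numerous or each held more of these RNAs cannot be told apart in bulk RNA, here and for every list below. 10 members were called higher once the read kind was a covariate.

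Among these genes, MYBPC3, the cardiac myosin-binding protein, had 53.5, 33.5 and 50.2 CPM after RA and no reads in untreated cells, at least 544-fold higher (adjusted p = 3.4e-11). SMYD1, a methyltransferase needed to assemble myofibrils, had 41.4, 27.6 and 32.2 CPM after RA and no reads in untreated cells, at least 399-fold higher (adjusted p = 2.9e-10). CSRP3, a protein of the Z disc, had 13.3, 7.72 and 11.3 CPM after RA and no reads in untreated cells. These 3 genes were read only after RA in the day 9 pair. MYH7, the slow and ventricular myosin heavy chain, had 51.8, 33.2 and 43.0 CPM after RA and 0.0401, 0.340 and 0.345 CPM in untreated cells. XIRP1, which binds actin at cell junctions of heart muscle, had 83.2, 53.1 and 87.9 CPM after RA and 0.321, 1.36 and 0.863 CPM in untreated cells. The log2 fold changes were 8.13 ± 0.44 for MYH7 and 6.94 ± 0.33 for XIRP1, with 6.90 and 6.05 without untreated replicate 1. For each of these 5 genes RA replicate 2 had the least.

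Members chosen after their values were seen carried much of the sum. ACTC1, cardiac actin, averaged 2593 ± 502 CPM after RA and 83.0 ± 31.9 CPM in untreated cells (SD, n = 3 each). MYL7, the atrial regulatory light chain, averaged 553 ± 74.0 CPM after RA and 8.73 ± 3.64 CPM in untreated cells, and TTN, the giant spring protein of the sarcomere, averaged 531 ± 123 CPM after RA and 14.8 ± 2.80 CPM in untreated cells. The list did not move as 1 block. TNNT2, cardiac troponin T, had 29.8, 20.03 and 29.2 CPM after RA, against 16.8, 19.2 and 22.3 CPM in untreated cells, so the groups overlapped and it was not called (log2 fold change 0.46 ± 0.21, adjusted p = 0.0665). NEBL, nebulette of the Z disc, averaged 159 ± 0.967 CPM after RA and 79.7 ± 8.87 CPM in untreated cells, just under 2-fold (log2 fold change 0.98, adjusted p = 1.2e-09), and it was called by DESeq2 (1.01), with RLE scaling (1.01) and without untreated replicate 1 (1.08). TNNI3, cardiac troponin I, at 3.11 ± 0.802 CPM after RA and 5.06 ± 0.495 CPM in untreated cells, and TCAP, a titin cap protein, at 0.809 ± 0.187 CPM after RA and 1.31 ± 0.189 CPM in untreated cells, were the other two tested members not called, and were also named after their values were seen. MYL2, the ventricular regulatory light chain, had no reads in any of the 6 libraries.

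The promoters of a pair of these genes are shown with short motifs that they hold. The MEF2 and GATA motifs of MYBPC3 are known from heart muscle genes, while the TATA box of MYH6 is not particular to them. The sequences are RefSeq's on GRCh38.p14, taken from the first start listed for the gene, written on the gene's strand and ending before the start, and motifs were searched on both strands. In capitals are the TATA box of MYH6 (TATAAA) and, in MYBPC3, a MEF2 motif (CTA and TAG with any 4 bases between) followed by a GATA motif (AGATAA), none of which overlap. The MYH6 stretch is chr14:23408284-23408373, minus strand, -100 to -11 from the start, and the MYBPC3 stretch is chr11:47352733-47352812, minus strand, -110 to -31.
MYH6: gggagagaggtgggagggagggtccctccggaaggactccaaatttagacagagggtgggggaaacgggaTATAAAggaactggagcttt
MYBPC3: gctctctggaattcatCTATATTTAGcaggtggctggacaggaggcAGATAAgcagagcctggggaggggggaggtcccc
Of the 23 sarcomere genes 15 had a promoter in the table, and 6 of these held AGATAA (40%) and 3 held the MEF2 motif (20%) within 250 bases before to 50 after the start. TATAAA was in 3 of the 15 (20%). Over all 27305 promoters the shares were 10.5% for AGATAA, 2.83% for the MEF2 motif and 12% for TATAAA. In lists described below AGATAA was in 36.4% of HNF network promoters and 26.3% of those for plasma proteins and lipid export. It was in 11.1% of smooth muscle and fibroblast promoters and in 11.8% of retinoid promoters. A match describes the letters in this window and is not evidence of binding.

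Genes for the excitation and calcium handling of heart muscle were also higher: 19 of 20 were tested, 13 were called higher and 0 lower, and their median log2 fold change was 2.75. The list summed to 5704, 5709 and 5011 CPM after RA and to 1786, 1572 and 1614 CPM in untreated cells. NPPB, the B-type natriuretic peptide, had 346, 355 and 467 CPM after RA and 7.11, 5.78 and 6.73 CPM in untreated cells (log2 fold change 5.85 ± 0.31, adjusted p = 1.2e-09). HCN4, the pacemaker channel, had 39.8, 64.1 and 72.9 CPM after RA and 3.41, 1.02 and 1.73 CPM in untreated cells. CORIN, the protease that activates natriuretic peptide, averaged 20.2 ± 4.91 CPM after RA and 0.576 ± 0.385 CPM in untreated cells (SD, n = 3 each). The groups did not overlap for any of these 3 genes. PLN, which restrains the calcium pump, had 9.46, 8.55 and 8.66 CPM after RA and 1 count over the untreated libraries, a ratio of 323 (95% counting interval 57.3 to 12800). NPPA, the A-type peptide, had 6.41, 3.96 and 8.44 CPM after RA and 1 count over the untreated libraries, a ratio of 227 (95% counting interval 40.1 to 9020). SLN, a regulator of the pump in the atrium, averaged 6.41 ± 1.97 CPM after RA and 0.0535 ± 0.0927 CPM in untreated cells. ATP2A2, the calcium pump itself, averaged 609 ± 36.4 CPM after RA and 354 ± 13.7 CPM in untreated cells and missed 2-fold. SLC8A1, the sodium-calcium exchanger, lay on the other side, at 96.5 ± 29.7 CPM after RA and 168 ± 11.5 CPM in untreated cells (log2 fold change -0.81 ± 0.17). Without RA replicate 1 its log2 fold change was -1.06 and it was called. With the read kind as a covariate 1 member of the list was called higher.

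The transcription factors of heart and splanchnic mesoderm split. Of 23 genes 18 were tested, 11 were called higher and 5 lower. GATA5, a zinc finger factor of heart and gut, had 17.8, 20.6 and 26.5 CPM after RA and 0.883, 1.02 and 0.691 CPM in untreated cells (log2 fold change 4.62 ± 0.25, adjusted p = 3.1e-13). NR2F1, a nuclear receptor of atrial cells, had 67.0, 101 and 123 CPM after RA and 5.50, 2.55 and 5.18 CPM in untreated cells. TBX20, a T-box factor of the heart, averaged 18.4 ± 6.64 CPM after RA and 1.79 ± 0.670 CPM in untreated cells, and HAND2, a helix-loop-helix factor of heart and limb, averaged 7.17 ± 2.44 CPM after RA and 0.462 ± 0.189 CPM in untreated cells. All 4 rose with no overlap. MEF2C, a muscle factor, had 45.8, 40.5 and 41.7 CPM after RA and 1.45, 7.65 and 7.60 CPM in untreated cells, and its log2 fold change of 3.31 ± 0.41 was 2.48 without untreated replicate 1.

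Other factors of the heart-forming field were lower after RA. NKX2-5, a factor of early heart and of pharyngeal endoderm, had 21.0, 8.87 and 7.66 CPM after RA and 39.5, 33.7 and 35.9 CPM in untreated cells (log2 fold change -1.62 ± 0.31, adjusted p = 3.7e-04). TCF21, a factor of the epicardium and visceral mesoderm, had 3 counts over the RA libraries and averaged 5.70 ± 2.74 CPM in untreated cells, a ratio of 33.5 (95% counting interval 11.2 to 164). ISL1, a factor of the second heart field that was chosen after its values were seen, averaged 63.5 ± 44.7 CPM after RA and 181 ± 27.6 CPM in untreated cells. TBX5, a T-box factor of the posterior heart field and lung mesoderm, stayed near the floor, with 0.160, 0.209 and 0.777 CPM after RA and no reads in untreated cells, and it did not pass the filter. 1 factor was called higher and 0 lower under the read kind covariate.

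Smooth muscle genes were also higher. Of 19 smooth muscle and fibroblast genes 18 were tested, 13 were called higher and 1 lower, with a median log2 fold change of 2.46. The list summed to 5483, 5716 and 6628 CPM after RA and to 681, 645 and 653 CPM in untreated cells, against 632 to 742 CPM in the CHIR99021 and BMP4 libraries. MYOCD, the coactivator of muscle genes, had 177, 173 and 206 CPM after RA and 5.74, 7.82 and 5.01 CPM in untreated cells (log2 fold change 4.94 ± 0.14, adjusted p = 5.3e-18). CNN1, calponin, had 257, 259 and 347 CPM after RA and 11.5, 11.2 and 14.2 CPM in untreated cells (log2 fold change 4.57 ± 0.18). ACTA2, smooth muscle actin, had 633, 589 and 839 CPM after RA and 51.2, 55.4 and 55.4 CPM in untreated cells (log2 fold change 3.68 ± 0.16). RA replicate 3 had the most of all 3 genes. TAGLN, transgelin, averaged 2301 ± 376 CPM after RA and 263 ± 64.5 CPM in untreated cells, VIM, vimentin of mesenchymal cells, averaged 1998 ± 48.9 CPM after RA and 155 ± 27.5 CPM in untreated cells, and MYH11, the smooth muscle myosin heavy chain, averaged 22.6 ± 9.18 CPM after RA and 2.13 ± 0.814 CPM in untreated cells. THY1, a surface protein of fibroblasts and the member that was called lower, was named after its values were seen and averaged 5.64 ± 1.2 CPM after RA and 15.0 ± 3.97 CPM in untreated cells. Once the read kind was a covariate, 5 members were called higher, MYOCD, CNN1, ACTA2 and VIM among them.

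**Figure D3:**
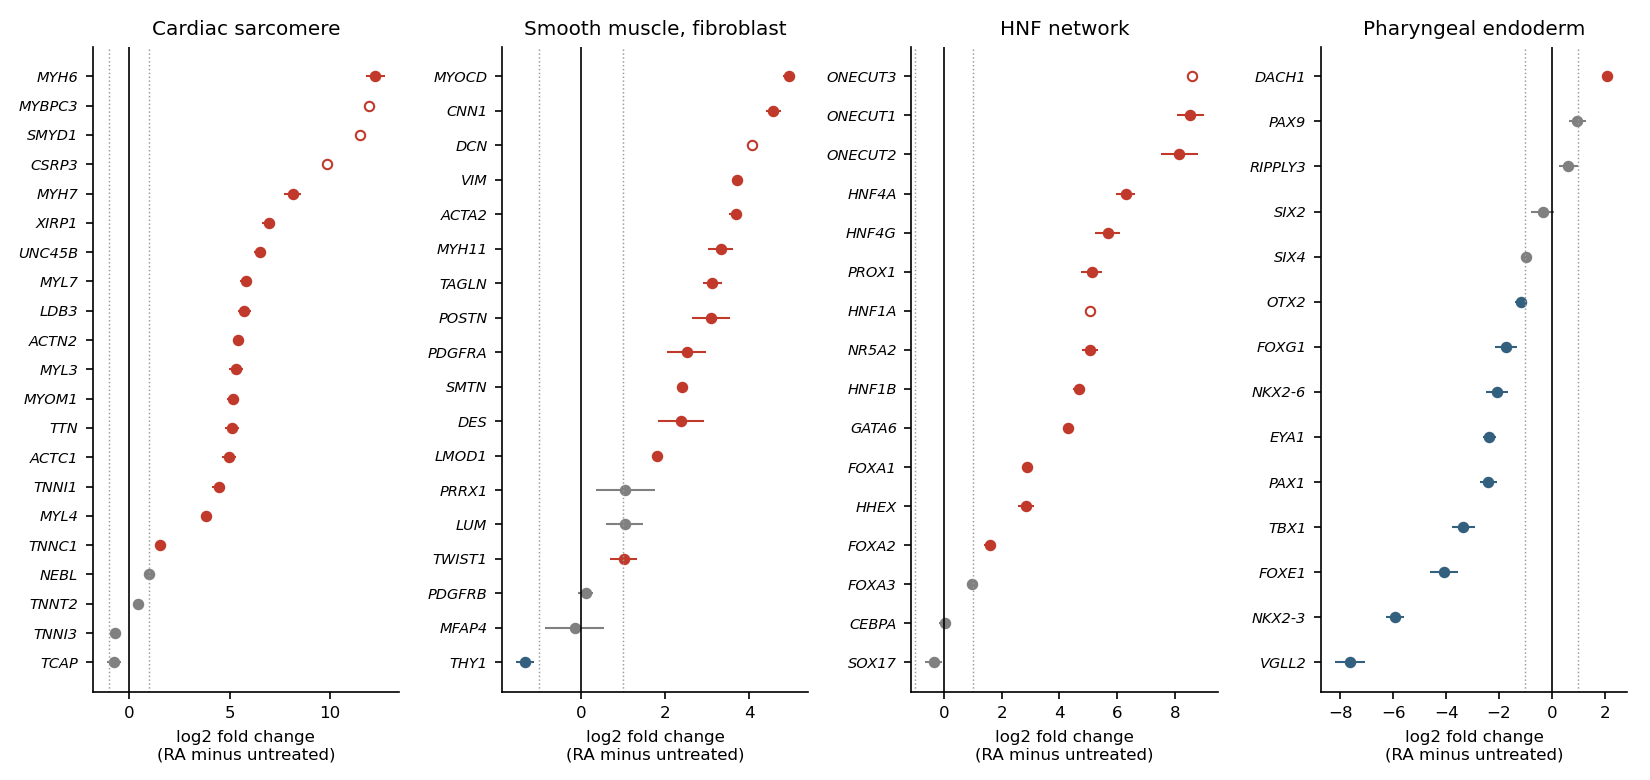
Fitted log2 fold change (RA minus untreated) with SE of tested members of 4 lists, red where called higher, blue where called lower and grey where not called, with dotted lines at 2-fold. Open circles have at most 3 counts over one group and their fitted values are not bounds; TNNT2, TNNI3 and TCAP stand apart from the other sarcomere genes, and DACH1 from the other pharyngeal genes.

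All 20 matrix genes were tested, of which 10 were called higher and 1 lower (median log2 fold change 0.92). FN1, fibronectin, averaged 31210 ± 5014 CPM after RA and 5459 ± 862 CPM in untreated cells (log2 fold change 2.52 ± 0.14, adjusted p = 3.3e-12). COL1A1, type I collagen, had 1302, 1878 and 1635 CPM after RA and 147, 304 and 138 CPM in untreated cells (log2 fold change 3.05 ± 0.28). TNC, tenascin C of remodelling stroma, had 467, 730.2 and 704 CPM after RA and 44.4, 54.2 and 15.5 CPM in untreated cells (log2 fold change 4.02 ± 0.35). RA replicate 1 had the least of each of these 3 genes. COL5A1, a fibril collagen, averaged 649 ± 94.9 CPM after RA and 137 ± 29.7 CPM in untreated cells, and COL5A2, its partner chain, averaged 151 ± 60.4 CPM after RA and 38.3 ± 18.7 CPM in untreated cells. COL3A1, type III collagen, had 390.4, 754 and 564 CPM after RA and 43.8, 295 and 75.3 CPM in untreated cells, and its log2 fold change of 2.10 ± 0.53 was 3.32 without untreated replicate 2 and missed the threshold when only the 6 libraries were fitted (adjusted p = 0.0962). LAMB1, a laminin chain of basement membrane, averaged 1411 ± 78.6 CPM after RA and 2196 ± 92.2 CPM in untreated cells and VCAN, versican, averaged 3009 ± 778 CPM after RA and 5942 ± 581 CPM in untreated cells. Under the read kind covariate 3 matrix genes were called higher and 0 lower, and of those named FN1 stayed called while COL1A1, TNC, COL5A1, COL5A2 and COL3A1 did not. LAMB1 and VCAN were not called, at log2 fold changes of -0.64 ± 0.07 for LAMB1 and -0.98 ± 0.16 for VCAN, though VCAN passed 2-fold with upper quartile factors (-1.08), with the replicate block (-1.0), and without RA replicate 1 (-1.14), RA replicate 2 (-1.04) or untreated replicate 2 (-1.06).

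Of 21 markers of endothelium and blood 16 were tested, 1 was called higher and 1 lower, which is no more than the shares over all genes, with a summed level of 146, 120 and 164 CPM after RA and 85.8, 163 and 549 CPM in untreated cells. ESAM, an endothelial adhesion molecule, had 24.0, 21.1 and 29.97 CPM after RA and 2.45, 9.18 and 8.63 CPM in untreated cells (log2 fold change 2.18 ± 0.49, and 1.49 without untreated replicate 1). CDH5, the cadherin of endothelium, named after its values were seen, had 17.9, 12.2 and 15.3 CPM after RA and 1.41, 20.9 and 21.8 CPM in untreated cells. Untreated replicate 1 had the least of both genes. HBB, adult beta-globin and the member called lower, was also named after its values were seen. It had 0, 0 and 15.8 CPM after RA and 30.3, 7.14 and 358 CPM in untreated cells, so the groups overlapped. No gene of the list was called lower by DESeq2, with only the 6 libraries fitted, or without RA replicate 1, RA replicate 2 or untreated replicate 3, and 3 were without untreated replicate 2. The part of these cells in the mesenchymal results was not tested.

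Many transcription factors of posterior foregut endoderm were called higher. Of 19 genes of the HNF network 16 were tested, 13 were called higher and 0 lower, with a median log2 fold change of 4.88. The list summed to 1219, 1686 and 2171 CPM after RA, and to 146, 139 and 148 CPM in untreated cells, against 121 to 180 CPM with CHIR99021 and BMP4. HNF4A, the nuclear receptor at the centre of liver and gut programmes, had 61.5, 80.5 and 103 CPM after RA and 1.04, 0.680 and 1.38 CPM in untreated cells (log2 fold change 6.29 ± 0.32, adjusted p = 4.3e-11). ONECUT1 (HNF6), a factor of liver and pancreas progenitors, had 55.1, 99.1 and 129 CPM after RA and 0.321, 0.17 and 0 CPM in untreated cells (adjusted p = 3.0e-10). ONECUT2, its paralog, had 195, 446 and 854 CPM after RA and 1.61, 1.70 and 2.24 CPM in untreated cells (log2 fold change 8.16 ± 0.63, and 7.53 without RA replicate 3). RA replicate 3 had the most and RA replicate 1 the least of all 3 factors. PROX1, a factor of liver bud and pancreas, had 31.4, 84.7 and 67.4 CPM after RA and 1.81, 2.04 and 1.38 CPM in untreated cells. NR5A2, a nuclear receptor of bile acid and pancreas genes, averaged 27.3 ± 7.37 CPM after RA and 0.909 ± 0.706 CPM in untreated cells, and HNF4G, a paralog of HNF4A in the gut, averaged 7.38 ± 1.76 CPM after RA and 0.110 ± 0.0956 CPM in untreated cells.

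Factors of general gut endoderm were read in every library of both groups. FOXA2, a pioneer factor of all gut endoderm, averaged 104 ± 12.8 CPM after RA and 34.0 ± 2.96 CPM in untreated cells, and HHEX, a factor of anterior endoderm and liver bud, averaged 244 ± 42.4 CPM after RA and 34.7 ± 3.62 CPM in untreated cells. EPCAM, an epithelial adhesion protein, averaged 412 ± 17.9 CPM after RA and 272 ± 10.4 CPM in untreated cells. GATA6, which acts in both endoderm and heart, averaged 204 ± 9.72 CPM after RA and 9.80 ± 1.64 CPM in untreated cells. SOX17, a factor of definitive endoderm that is lost as gut tube forms, averaged 2.61 ± 1.08 CPM after RA and 3.50 ± 0.943 CPM in untreated cells. These 5 were named after their values were seen, so they are a description and not a check of the labelled cell type. FOXA3, a paralog of FOXA2 in liver, averaged 25.6 ± 2.36 CPM after RA and 12.9 ± 2.75 CPM in untreated cells and lay just under 2-fold (log2 fold change 0.98 ± 0.13), with 1.01 by DESeq2 or RLE scaling, 1.05 without RA replicate 2, and 1.01 or 1.07 without untreated replicate 1 or 2. CEBPA, a factor of liver and fat cells, averaged 5.50 ± 1.29 CPM after RA and 5.39 ± 0.854 CPM in untreated cells and was not called (log2 fold change 0.04 ± 0.22, adjusted p = 0.891). With the read kind as a covariate 3 factors of the list were called higher.

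Products of liver and of the endoderm beside it were higher in part. Of 23 genes for plasma proteins and lipid export 17 were tested, 13 were called higher and 1 lower, with a median log2 fold change of 4.05. The summed level was 788, 999 and 899 CPM after RA and 235, 159 and 178 CPM in untreated cells, against 365 to 416 CPM with CHIR99021 and BMP4. VTN, vitronectin, had 140.2, 208 and 244 CPM after RA and 8.07, 4.08 and 6.73 CPM in untreated cells (log2 fold change 4.84 ± 0.23, adjusted p = 5.7e-11). TTR, the carrier of thyroxine and retinol, had 151, 182 and 104.8 CPM after RA and 2.25, 2.55 and 10.4 CPM in untreated cells (log2 fold change 5.22 ± 0.43, with 4.5 without untreated replicate 1 and 5.97 without untreated replicate 3). SERPINA1, alpha-1-antitrypsin, had 12.7, 38.5 and 32.4 CPM after RA and 0.0401, 0.510 and 0 CPM in untreated cells (adjusted p = 6.2e-09). The groups did not overlap for these 3 genes. FGA, fibrinogen alpha, averaged 16.8 ± 6.11 CPM after RA and 0.426 ± 0.542 CPM in untreated cells, and FGB, fibrinogen beta, averaged 12.9 ± 6.26 CPM after RA and had 2 counts over the untreated libraries. AFP, alpha-fetoprotein, had 11.9, 15.4 and 9.44 CPM after RA and 0.0401, 0 and 2.07 CPM in untreated cells. Its log2 fold change of 5.0 ± 0.93 was 3.56 without untreated replicate 1 and 8.13 without untreated replicate 3. AFP averaged 13.9 ± 10.2 CPM with CHIR99021 and BMP4 and no RA, no lower than after RA, and it was not called under the read kind covariate. APOA2, an apolipoprotein of high density lipoprotein, averaged 6.17 ± 0.755 CPM after RA and 0.468 ± 0.349 CPM in untreated cells. APOC1, an apolipoprotein outside this rise, averaged 12.4 ± 2.49 CPM after RA and 9.87 ± 0.772 CPM in untreated cells (log2 fold change 0.35 ± 0.15).

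A few members of the list were at or near the floor in both groups. APOC3, an apolipoprotein of mature liver, had no reads in any of the 6 libraries, and ALB, serum albumin, named after its values were seen, averaged 0.345 ± 0.279 CPM after RA and 0.336 ± 0.0127 CPM in untreated cells. RBP4, the plasma carrier of retinol, was the member called lower and averaged 0.199 ± 0.119 CPM after RA and 1.06 ± 0.355 CPM in untreated cells. It too was named after its values were seen, and no gene of the list was called lower with a minimum count of 30 or when only the 6 libraries were fitted. Under the read kind covariate 3 members of the list were called higher, among them SERPINA1 and VTN.

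The promoters of FGA and AFP are shown because they were the members of this list that held the motif of the HNF1 homeobox factors (GTTAAT, any base, ATT; in capitals). The FGA stretch is chr4:154590763-154590832, minus strand, -90 to -21 from the start, with the motif on the other strand, and the AFP stretch is chr4:73436081-73436205, plus strand, -140 to -16, whose second block of capitals is a TATA box.
FGA: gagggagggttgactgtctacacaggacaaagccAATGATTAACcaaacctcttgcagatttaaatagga
AFP: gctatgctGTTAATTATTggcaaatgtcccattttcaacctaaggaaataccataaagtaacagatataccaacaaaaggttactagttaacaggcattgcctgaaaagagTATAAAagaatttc
The HNF1 motif was in 2 of the 19 promoters of the list found in the table (10.5%) and in 0.293% of all promoters. The sources are RefSeq on GRCh38.p14 as above.

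Genes of pancreas and duodenum appeared at low to moderate levels. Of 25 genes 13 were tested, 9 were called higher and 0 lower. Of the 25, 15 had no reads in any untreated library, so members such as PDX1 and SPINK1 passed the filter only through RA-treated libraries and the count is a description. With genes at 0 set to their bound the median log2 fold change was 2.47. Beside PDX1 and SPINK1, RFX6, a factor of gut and endocrine progenitors, had 16.2, 30.5 and 49.6 CPM after RA and 0.161, 0.17 and 0.345 CPM in untreated cells (log2 fold change 7.33 ± 0.53, adjusted p = 8.2e-09). SOX9, a factor of progenitors and ducts, had 18.8, 25.04 and 36.1 CPM after RA and 5.86, 8.50 and 4.66 CPM in untreated cells (log2 fold change 2.11 ± 0.27). PRSS1, cationic trypsinogen, had 11.9, 12.6 and 14.0 CPM after RA and 0.281, 0 and 0.345 CPM in untreated cells (log2 fold change 5.65 ± 0.46). PRSS1 belongs to a family of near-identical trypsinogen genes, so its reads are uncertain. CEL, a pancreatic lipase, averaged 3.70 ± 0.895 CPM after RA and 6.50 ± 2.05 CPM in untreated cells and was not called, but reached a log2 fold change of -1.04 without RA replicate 2 and without untreated replicate 3. No library of either group had a read of PTF1A, NEUROG3, NEUROD1, NKX2-2, PAX4, INS or GCG, the factors and hormones of committed acinar and endocrine cells. A minimum count of 30 left 5 members called higher, and the read kind covariate left 2. PDX1 was among those 2, though the covariate's effect cannot be estimated for it.

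Intestinal genes were few. Of 21 genes 8 were tested, 5 were called higher and 2 lower, against 12.5% and 11.9% of all tested genes. VIL1, villin of the brush border, had 79.0, 125 and 158 CPM after RA and 5.10, 2.72 and 7.42 CPM in untreated cells (log2 fold change 4.58 ± 0.28, adjusted p = 1.5e-09). ISX, an intestinal homeobox factor that RA is known to induce, had 7.85, 14.0 and 16.6 CPM after RA and 0.281, 0.510 and 0.691 CPM in untreated cells. Both members called lower were named after their values were seen: LGR5, a Wnt target and stem cell receptor, averaged 1.90 ± 0.932 CPM after RA and 4.17 ± 1.79 CPM in untreated cells, and GPA33, an intestinal surface protein, averaged 1.11 ± 0.172 CPM after RA and 2.29 ± 0.412 CPM in untreated cells. Only 1 gene of the list was called lower without RA replicate 2, RA replicate 3, untreated replicate 1 or untreated replicate 2. Products of mature enterocytes (SI, FABP2, KRT20) had no reads in any of the 6 libraries. The read kind covariate left 2 members called higher, VIL1 and ISX, and 0 lower.

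Most tested factors of pharyngeal endoderm fell. Of 21 genes 15 were tested, 1 was called higher and 10 lower, with a median log2 fold change of -2.07. The list summed to 305, 231 and 152 CPM after RA and to 872, 910 and 779 CPM in untreated cells, against 976 to 1128 CPM with CHIR99021 and BMP4. VGLL2, a cofactor found in pharyngeal pouches and muscle, had 0.641, 0.313 and 0.333 CPM after RA and 84.9, 104.9 and 58.2 CPM in untreated cells (log2 fold change -7.64 ± 0.57, adjusted p = 4.8e-08). FOXE1, a forkhead factor of the thyroid primordium, had 40.7, 12.5 and 3.66 CPM after RA and 303, 305 and 277 CPM in untreated cells (log2 fold change -4.08 ± 0.53, and -5.17 without RA replicate 1). With CHIR99021 and BMP4 and no RA, FOXE1 averaged 19.1 ± 11.5 CPM (SD, n = 3), as low as after RA, and it was not called under the read kind covariate. NKX2-3, a homeobox factor of pharyngeal floor and gut mesoderm, had 1.60, 0.313 and 0.111 CPM after RA and 34.5, 34.9 and 37.1 CPM in untreated cells (log2 fold change -5.93 ± 0.35, and -7.29 without RA replicate 1). RA replicate 1 had the most of all 3 genes. TBX1, the T-box factor of the pharyngeal apparatus, averaged 2.01 ± 1.505 CPM after RA and 19.2 ± 5.88 CPM in untreated cells, and PAX1, a paired-box factor of pouches, averaged 3.15 ± 2.16 CPM after RA and 15.2 ± 3.07 CPM in untreated cells. OTX2, a factor of anterior identity, had 97.1, 101 and 53.1 CPM after RA and 223, 185 and 157 CPM in untreated cells (log2 fold change -1.18 ± 0.20, and -0.93, below 2-fold, without RA replicate 3).

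PAX9 and DACH1 lay on the other side of the list. PAX9, a second paired-box factor of pouches, had 8.17, 4.59 and 3.55 CPM after RA and 2.49, 2.89 and 2.94 CPM in untreated cells. It was not called (log2 fold change 0.97 ± 0.32, adjusted p = 0.0109), but passed 2-fold with the replicate block (1.01), without RA replicate 2 (1.07) or 3 (1.2) and without untreated replicate 3 (1.01). DACH1, a corepressor and the member called higher, was named after its values were seen and averaged 23.5 ± 3.15 CPM after RA and 6.57 ± 2.84 CPM in untreated cells. SIX4, a homeobox factor, averaged 30.5 ± 2.98 CPM after RA and 60.3 ± 6.16 CPM in untreated cells, just under 2-fold at -0.98 ± 0.09, and it passed without RA replicate 1 (-1.04), untreated replicate 1 (-1.04) or untreated replicate 3 (-1.01) and with upper quartile factors (-1.08). 3 members were called lower and 0 higher once the read kind was a covariate.

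Factors of oesophageal and airway epithelium also changed. Of 20 genes 15 were tested, 3 were called higher and 5 lower, against 12.5% and 11.9% of all tested genes. TP63, the factor of basal cells of stratified epithelium, had 3.53, 1.15 and 0.555 CPM after RA and 65.0, 55.6 and 59.9 CPM in untreated cells (log2 fold change -5.28 ± 0.26, adjusted p = 1.9e-12, and -6.12 without RA replicate 1). SOX2, a factor of anterior foregut, had 26.6, 13.5 and 4.55 CPM after RA and 74.1, 75.5 and 74.4 CPM in untreated cells (log2 fold change -2.41 ± 0.40, and -3.03 without RA replicate 1). The RA libraries differed among themselves in SOX2 far more than the untreated ones, and SOX2 averaged 23.5 ± 6.27 CPM with CHIR99021 and BMP4 and no RA and was not called under the read kind covariate. IRX1, a homeobox factor of lung and other epithelia, averaged 0.599 ± 0.522 CPM after RA and 8.23 ± 0.882 CPM in untreated cells, and IRX2, its neighbour in the genome, had 4.49, 3.76 and 1.44 CPM after RA and 20.9, 28.7 and 26.6 CPM in untreated cells. NKX2-1, the first factor of lung and thyroid, was at or near the floor in both groups, with 0.321, 0.209 and 0 CPM after RA and 1.04, 1.53 and 0.863 CPM in untreated cells (adjusted p = 3.2e-04). KRT7, a keratin of simple ductal and airway epithelium, had 168, 103 and 74.4 CPM after RA and 18.2, 2.89 and 5.01 CPM in untreated cells, with a log2 fold change of 3.32 ± 0.43 that was 4.85 without untreated replicate 1. KRT5 and KRT14, keratins of basal cells, had no reads in any of the 6 libraries. GRHL2, a regulator of epithelial junctions, averaged 77.0 ± 19.9 CPM after RA and 128 ± 7.59 CPM in untreated cells and was not called (log2 fold change -0.75 ± 0.13). With the read kind as a covariate 0 members were called higher and 1 lower.

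All 20 genes of epithelial junctions and keratins were tested, 4 were called higher and 1 lower, near the 24.4% called over all genes. By adjusted p alone 11 were higher and 6 lower, against 65.1% of all genes in either direction. Their sum was 13580, 13750 and 13950 CPM after RA and 7878, 6361 and 6791 CPM in untreated cells. KRT18, a keratin of simple epithelium, averaged 2758 ± 88.5 CPM after RA and 613 ± 103 CPM in untreated cells (log2 fold change 2.17 ± 0.11, adjusted p = 1.4e-13). KRT8, its partner, averaged 4942 ± 162 CPM after RA and 1487 ± 192 CPM in untreated cells (log2 fold change 1.73 ± 0.10), and ELF3, an epithelial Ets factor, averaged 40.7 ± 2.51 CPM after RA and 8.01 ± 1.43 CPM in untreated cells (log2 fold change 2.25 ± 0.12). TJP1, a tight junction scaffold, averaged 570.1 ± 11.2 CPM after RA and 242 ± 38.8 CPM in untreated cells. All 4 stayed called under the read kind covariate. CLDN4, a claudin, averaged 92.2 ± 30.4 CPM after RA and 184 ± 35.3 CPM in untreated cells, and its call at -1.02 ± 0.20 was lost by DESeq2 (-0.98), with RLE scaling, and without RA replicate 2 (-0.93), RA replicate 3 (-0.85) or untreated replicate 1 (-0.84). DSP, desmoplakin, at 1276 ± 206 CPM after RA and 1139 ± 90.9 CPM in untreated cells, and CLDN6, a claudin of embryonic epithelium, at 913 ± 29.9 CPM after RA and 578 ± 96.5 CPM in untreated cells, were not called.

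Genes of the retinoid pathway changed in both directions. All 20 of its genes were tested, 4 were called higher and 5 lower, against 12.5% and 11.9% of all tested genes. CYP26A1, the enzyme that destroys RA, had 3.37, 1.36 and 2.55 CPM after RA and 149.8, 130.1 and 94.1 CPM in untreated cells (log2 fold change -5.76 ± 0.28, adjusted p = 1.2e-10). CYP26C1, a second enzyme of this family, had 2.88, 1.36 and 0.777 CPM after RA and 148, 105.3 and 112 CPM in untreated cells (log2 fold change -6.31 ± 0.53). STRA6, the receptor that imports retinol, had 6.25, 2.61 and 3.55 CPM after RA and 48.7, 55.8 and 52.3 CPM in untreated cells (log2 fold change -3.73 ± 0.17). All 3 fell with no overlap and stayed called with the read kind as a covariate, and CYP26A1 stood at 122 ± 12.2 CPM in the CHIR99021 and BMP4 libraries.

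Other retinoid genes were higher after RA. TGM2, a transglutaminase induced by RA in many cells, had 107, 111 and 151 CPM after RA and 2.29, 4.59 and 4.66 CPM in untreated cells (log2 fold change 5.25 ± 0.28, adjusted p = 1.2e-10). DHRS3, which turns retinal back to retinol, had 47.1, 42.1 and 49.0 CPM after RA and 21.2, 18.9 and 20.03 CPM in untreated cells (log2 fold change 1.18 ± 0.11). ALDH1A1, an enzyme that makes RA, was called at a low level, 8.63 ± 2.48 CPM after RA and 0.477 ± 0.187 CPM in untreated cells. ALDH1A1 averaged 5.44 ± 1.96 CPM with CHIR99021 and BMP4 and no RA, and under the read kind covariate its log2 fold change was -5.69 (adjusted p = 0.791). RXRA, the shared partner of nuclear receptors, averaged 111 ± 2.32 CPM after RA and 179.6 ± 14.8 CPM in untreated cells and missed 2-fold (log2 fold change -0.70 ± 0.07). RARB, the RA receptor that RA itself induces, had 56.9, 42.6 and 36.5 CPM after RA and 28.0, 37.2 and 34.5 CPM in untreated cells, so the groups overlapped and it was not called (log2 fold change 0.47 ± 0.12, adjusted p = 0.00178).

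The RARB promoter is shown as the textbook case of an RA response element, a direct repeat of receptor half-sites set apart by a spacer (GTTCA, any 6 bases, GTTCA; in capitals). The stretch is chr3:25428173-25428242, plus strand, -90 to -21 from the first listed start in RefSeq on GRCh38.p14.
RARB: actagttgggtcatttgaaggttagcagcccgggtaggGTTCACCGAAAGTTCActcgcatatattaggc
These letters were in 0.0623% of all promoters and in 1 of 17 retinoid genes with a promoter in the table, RARB itself.

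HOX genes were read at low levels. Of 16 genes at the 3′ ends of the clusters 8 were tested and all 8 tested were called higher, and they passed the filter in part through RA libraries, so the count is a description. The list summed to 59.6, 28.4 and 32.1 CPM after RA and to 0.0401, 1.53 and 1.04 CPM in untreated cells. HOXB2 had 25.8, 11.1 and 13.4 CPM after RA and 1 count over the untreated libraries, a ratio of 572 (95% counting interval 102 to 22600). HOXB3 had 7.53, 3.96 and 4.11 CPM after RA and 0, 0.850 and 0.691 CPM in untreated cells. RA replicate 1 had the most of both. HOTAIRM1, a noncoding RNA read from within the HOXA cluster and induced by RA, had 7.21, 3.65 and 3.44 CPM after RA and no reads in untreated cells, at least 54.5-fold higher. HOXB1, an early direct target of RA, had 7 counts over the RA libraries, with 0 in untreated cells. None of 18 genes further 5′ passed the filter, and they summed to 1.28, 0.313 and 0.555 CPM after RA and to 0.0401, 0.17 and 0 CPM in untreated cells. 0 of the 8 were called under the read kind covariate.

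**Figure D4:**
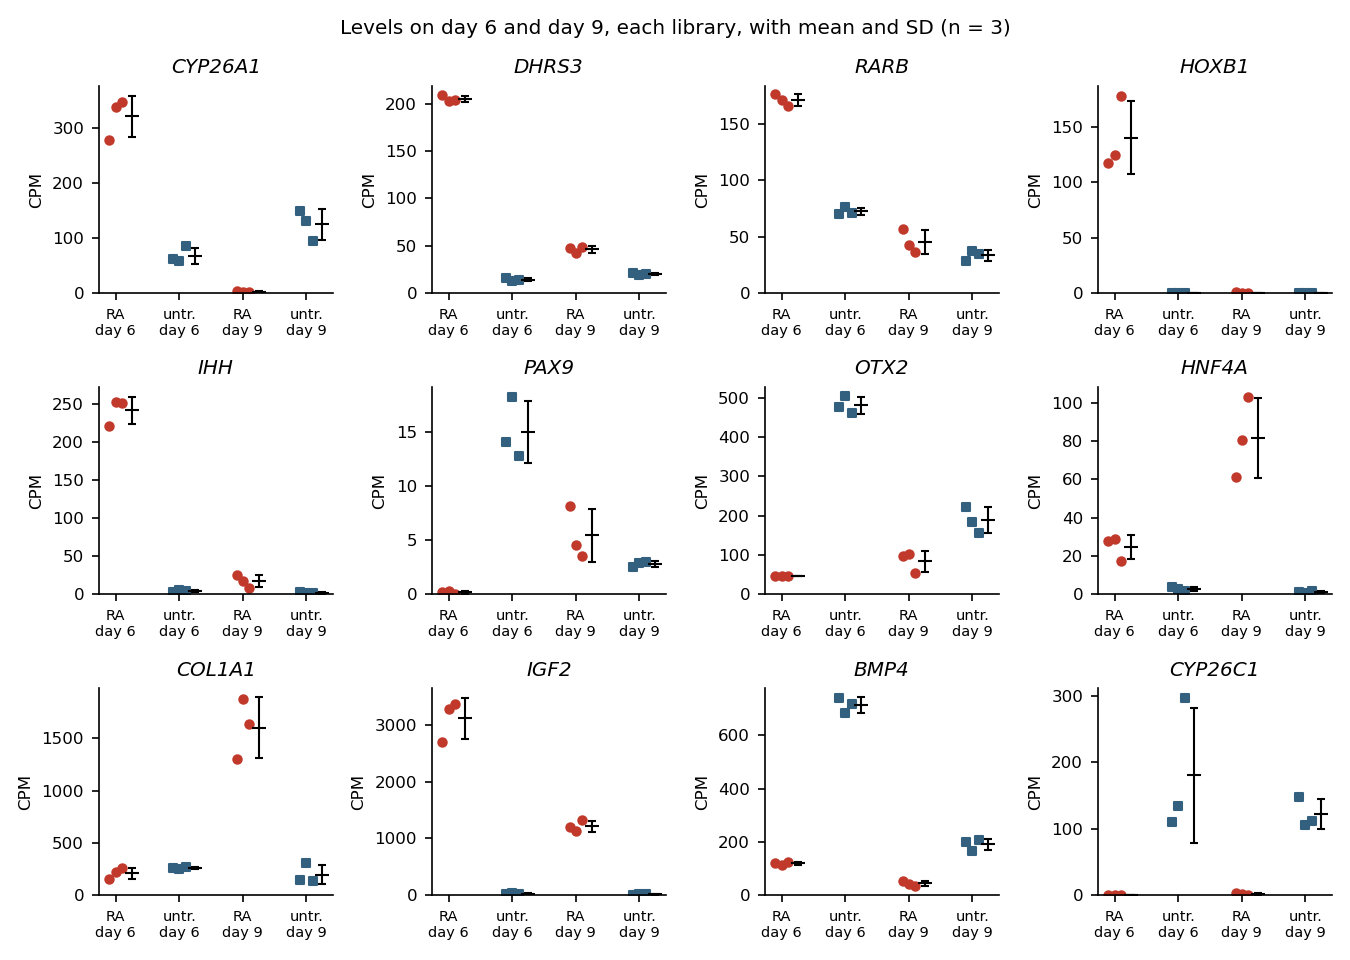
Level in CPM of 12 genes in each library on day 6 and day 9, RA (red circles) left of untreated (blue squares) on each day, with mean and SD (n = 3). CYP26A1 is high with RA on day 6 and low with it on day 9, HOXB1 and IHH are high with RA mainly on day 6, and HNF4A and COL1A1 are highest with RA on day 9.

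The response to RA on day 9 was set against that on day 6, at the end of the RA pulse, for 14 genes chosen for their known roles, by the interaction term of the same edgeR fit. Over all tested genes this term passed an adjusted p of 0.05 for 50.9%, and here it passed for 8 of 14. CYP26A1 turned round: on day 6 it averaged 321 ± 37.5 CPM with RA and 68.1 ± 14.5 CPM without (log2 fold change 2.23 ± 0.18), so the effects differed by -7.99 ± 0.34 (adjusted p = 6.9e-11). The effect on DHRS3 was smaller on day 9 by 2.68 in log2 (-2.68 ± 0.15, adjusted p = 2.7e-12), and that on RARB was also smaller (-0.77 ± 0.16, adjusted p = 3.8e-04). IHH, a Hedgehog ligand of gut endoderm, averaged 242 ± 17.8 CPM with RA and 3.95 ± 1.66 CPM without on day 6, and the effect was smaller on day 9 (-2.78 ± 0.87, adjusted p = 0.017).

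Effects on 4 genes differed towards the higher side on day 9. PAX9 averaged 0.155 ± 0.135 CPM with RA and 15.0 ± 2.89 CPM without on day 6, and the effects differed by 7.29 ± 0.59 (adjusted p = 8.8e-10). COL1A1 averaged 210 ± 52.0 CPM with RA and 257 ± 7.65 CPM without on day 6 and was not called then, and the effects differed by 3.35 ± 0.38 (adjusted p = 7.0e-06). HNF4A averaged 24.6 ± 6.43 CPM with RA and 2.61 ± 0.917 CPM without on day 6, and the effects differed by 3.01 ± 0.56 (adjusted p = 3.1e-04). OTX2 averaged 46.2 ± 0.519 CPM with RA and 481 ± 22.1 CPM without on day 6, and the effects differed by 2.20 ± 0.28 (adjusted p = 1.3e-05). IGF2, a growth factor, rose by 7.24 ± 0.28 in log2 on day 6 and by 7.22 ± 0.30 on day 9, and the difference of -0.02 ± 0.41 did not pass (adjusted p = 0.975). BMP4 and CYP26C1 likewise did not pass, at 0.45 ± 0.19 (adjusted p = 0.0606) and 2.18 ± 1.37 (adjusted p = 0.206), nor did HOXB2 at 0.77 ± 1.36 (adjusted p = 0.666), and HOXB1 and HOTAIRM1 had too few untreated reads for the difference to be estimated. Which genes passed depended on the method. Of those that did not pass here, 4 passed by DESeq2 and 4 on log2(TPM + 1). With RLE factors, without RA replicate 3 and without untreated replicate 3, 1 more passed in each. Without untreated replicate 1, 1 gene that had passed no longer did. Untreated day 6 replicates 1 and 3 were of mixed read kind, so the day 6 response carries part of that difference.

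Signalling genes changed in several pathways. For Hedgehog, 15 of 16 genes were tested, 3 were called higher and 5 lower, against 12.5% and 11.9% of all tested genes. GLI3, a transcription factor of the pathway that acts mostly as repressor, had 26.0, 22.0 and 24.0 CPM after RA and 308, 289 and 350.3 CPM in untreated cells (log2 fold change -3.72 ± 0.10, adjusted p = 2.0e-18). GLI1, the activator and target, had 6.89, 3.02 and 5.11 CPM after RA and 44.2, 47.6 and 47.5 CPM in untreated cells (log2 fold change -3.26 ± 0.32). PTCH1, the receptor and target, had 131, 86.2 and 82.4 CPM after RA and 424, 527 and 472 CPM in untreated cells (log2 fold change -2.26 ± 0.26). All 3 fell with no overlap. GLI3 stayed called under the read kind covariate and averaged 389.9 ± 38.0 CPM with CHIR99021 and BMP4 and no RA, while GLI1 at 14.1 ± 6.36 CPM and PTCH1 at 207 ± 84.1 CPM were low there too and lost their calls under the covariate. GAS1, a coreceptor, averaged 5.49 ± 1.22 CPM after RA and 11.8 ± 3.90 CPM in untreated cells, a fall of 1.22 in log2 that was 0.91, below 2-fold, without untreated replicate 1. SMO, the signal transducer, averaged 159.8 ± 15.4 CPM after RA and 219 ± 16.2 CPM in untreated cells and was not called.

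Of the ligands, IHH had 24.4, 17.6 and 8.44 CPM after RA and 2.29, 0.680 and 1.21 CPM in untreated cells (log2 fold change 3.17 ± 0.56, and 4.09 without untreated replicate 1). SHH, the other ligand of the foregut, had 50.5, 24.1 and 26.8 CPM after RA and 87.5, 54.9 and 59.0 CPM in untreated cells, which did not pass (log2 fold change -1.07 ± 0.51, adjusted p = 0.0845) but did without RA replicate 1 (-1.44, adjusted p = 0.0468) and with only the 6 libraries fitted (-1.05, adjusted p = 0.0416). HHIP, an antagonist that binds the ligands, had 14.6, 22.3 and 17.8 CPM after RA and 0.682, 6.80 and 1.90 CPM in untreated cells (log2 fold change 3.05 ± 0.49, with 2.07 without untreated replicate 1 and 4.25 without untreated replicate 2).

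All 20 genes of BMP signalling were tested, 7 were called higher and 5 lower, against 12.5% and 11.9% of all tested genes. BMP2 had 216, 334 and 330.2 CPM after RA and 25.8, 13.3 and 17.8 CPM in untreated cells (log2 fold change 3.85 ± 0.27, adjusted p = 2.6e-08). BMP4, its close relative, had 53.5, 43.0 and 34.6 CPM after RA and 198, 166 and 207 CPM in untreated cells (log2 fold change -2.14 ± 0.14, adjusted p = 5.4e-10). The ligands thus moved in opposite directions. SMAD6, an inhibitor and target of BMP, averaged 226 ± 29.5 CPM after RA and 63.1 ± 9.14 CPM in untreated cells, and ID3, a target, averaged 466 ± 36.3 CPM after RA and 248 ± 19.6 CPM in untreated cells and missed 2-fold (log2 fold change 0.91 ± 0.13). Of the antagonists, CHRD, chordin, averaged 14.2 ± 1.57 CPM after RA and 4.5 ± 0.893 CPM in untreated cells. GREM1, gremlin, averaged 6.45 ± 2.07 CPM after RA and 23.0 ± 5.44 CPM in untreated cells, and CER1, cerberus, averaged 13.7 ± 3.77 CPM after RA and 47.1 ± 13.9 CPM in untreated cells. Once the read kind was a covariate, 1 gene of the list was called higher and 2 lower, BMP2 and BMP4 among them.

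Of 21 FGF genes 19 were tested, 2 were called higher and 3 lower, which is near the shares over all genes. FGF8, a ligand of pharyngeal and heart fields that RA opposes, had 4.33, 1.77 and 1.67 CPM after RA and 34.9, 41.7 and 30.9 CPM in untreated cells (log2 fold change -3.89 ± 0.27, adjusted p = 4.5e-10). SPRY1, a feedback inhibitor, averaged 14.3 ± 1.75 CPM after RA and 57.3 ± 5.82 CPM in untreated cells. FGFR4, the receptor of liver and endoderm, had 61.2, 73.5 and 90.4 CPM after RA and 12.2, 13.8 and 14.8 CPM in untreated cells (log2 fold change 2.51 ± 0.13). DUSP4, a phosphatase of the pathway, averaged 60.9 ± 15.0 CPM after RA and 19.3 ± 2.30 CPM in untreated cells. With the read kind as a covariate FGF8, FGFR4 and DUSP4 stayed called, while SPRY1 did not. FGFR2, a receptor of epithelium, averaged 130.1 ± 12.9 CPM after RA and 251 ± 25.1 CPM in untreated cells and was not called (log2 fold change -0.94 ± 0.10), though it reached -1.04 with upper quartile factors.

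Of 20 genes of Wnt signalling 19 were tested, 3 were called higher and 5 lower, against 12.5% and 11.9% of all tested genes. SFRP5, a secreted Wnt antagonist of foregut endoderm, had 52.1, 71.6 and 134 CPM after RA and 0.482, 0.680 and 0.518 CPM in untreated cells (log2 fold change 7.35 ± 0.49, adjusted p = 1.1e-08). WNT5A, a noncanonical ligand, had 12.7, 5.95 and 6.77 CPM after RA and 91.3, 60.2 and 85.5 CPM in untreated cells (log2 fold change -3.30 ± 0.32). WNT11, another noncanonical ligand, had 3.53, 5.22 and 8.66 CPM after RA and 0.361, 0.850 and 0.173 CPM in untreated cells. WNT4 averaged 1.85 ± 0.486 CPM after RA and 9.64 ± 0.868 CPM in untreated cells. Of the feedback targets, LEF1 averaged 2.74 ± 0.270 CPM after RA and 8.13 ± 1.06 CPM in untreated cells (log2 fold change -1.53 ± 0.22), and ZNRF3 averaged 24.7 ± 3.06 CPM after RA and 57.3 ± 2.21 CPM in untreated cells (log2 fold change -1.23 ± 0.10). LGR4, the receptor of R-spondins, averaged 896 ± 148 CPM after RA and 492 ± 33.1 CPM in untreated cells and missed 2-fold (log2 fold change 0.86 ± 0.14). Once the read kind was a covariate, no Wnt gene was called, and LEF1 had a log2 fold change of 2.65.

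Several genes of the insulin-like growth factors were called higher. Of 15 genes 14 were tested, 8 were called higher and 0 lower, and 4 were lower by adjusted p alone, with a sum of 7099, 7400 and 7101 CPM after RA and 3122, 3010 and 3111 CPM in untreated cells. IGF2, the fetal growth factor, had 1200, 1124 and 1321 CPM after RA and 5.66, 12.8 and 9.67 CPM in untreated cells (log2 fold change 7.22 ± 0.29, adjusted p = 3.6e-11). IGFBP3, a binding protein, averaged 591 ± 108 CPM after RA and 20.4 ± 5.67 CPM in untreated cells (log2 fold change 4.91 ± 0.31), and IGFBP5 averaged 2236 ± 256 CPM after RA and 230.2 ± 54.6 CPM in untreated cells (log2 fold change 3.27 ± 0.24). IGFBP7 averaged 260.1 ± 79.2 CPM after RA and 11.5 ± 10.7 CPM in untreated cells, with a log2 fold change of 4.79 ± 0.47 that was 4.12 without untreated replicate 1 and 5.70 without untreated replicate 2. IGFBP2 averaged 671 ± 41.9 CPM after RA and 288 ± 29.9 CPM in untreated cells, and IGFBP6 averaged 5.18 ± 1.38 CPM after RA and 0.802 ± 0.360 CPM in untreated cells. IGF2BP1, an RNA-binding protein of fetal cells, averaged 793 ± 40.1 CPM after RA and 1030 ± 24.6 CPM in untreated cells and missed 2-fold (log2 fold change -0.38 ± 0.06, adjusted p = 1.3e-05). IGF2 stood at 15.2 ± 2.83 CPM with CHIR99021 and BMP4, and it, IGFBP5 and IGFBP2 stayed called under the read kind covariate.

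Genes of DNA replication fell by modest amounts. All 22 were tested, 0 were called higher and 9 lower (median log2 fold change -0.91), and by adjusted p alone 21 were lower, against 32.5% of all genes (65.1% in either direction). The list summed to 1379, 1362 and 1379 CPM after RA and to 2660, 2702 and 2498 CPM in untreated cells, and no library overlapped. MCM2, of the replicative helicase, had 109, 93.5 and 92.5 CPM after RA and 282, 295 and 260.3 CPM in untreated cells (log2 fold change -1.51 ± 0.09, adjusted p = 1.0e-12). GINS2, a partner of that helicase, averaged 21.2 ± 0.879 CPM after RA and 59.4 ± 3.74 CPM in untreated cells, and CDT1, which loads it, averaged 22.3 ± 2.95 CPM after RA and 61.1 ± 6.52 CPM in untreated cells. MCM5 averaged 56.9 ± 4.17 CPM after RA and 136 ± 6.45 CPM in untreated cells, MCM4 averaged 136 ± 7.22 CPM after RA and 304 ± 17.7 CPM in untreated cells, and MCM10, an initiation factor, averaged 19.8 ± 2.64 CPM after RA and 42.6 ± 2.63 CPM in untreated cells. On log2(TPM + 1) values 3 were called lower. Under the read kind covariate MCM2, GINS2, CDT1, MCM5 and MCM4 stayed called, while MCM10 did not. All 20 mitotic genes were tested, 0 were called higher and 1 lower, below the 24.4% called over all tested genes. The member called was MKI67, the proliferation marker, which averaged 272 ± 18.6 CPM after RA and 573 ± 23.1 CPM in untreated cells (log2 fold change -1.08 ± 0.07). MKI67 averaged 382 ± 16.7 CPM with CHIR99021 and BMP4 and no RA (SD, n = 3). By adjusted p alone 16 mitotic genes were lower, against 32.5% of all genes. On log2(TPM + 1), and likewise with the read kind covariate, 0 mitotic genes were called lower.

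Of 13 mitochondrially encoded genes 0 were called higher and 1 lower, below the 24.4% called over all tested genes. ND1, of respiratory complex I, averaged 1859 ± 80.2 CPM after RA and 4242 ± 359.8 CPM in untreated cells (log2 fold change -1.19 ± 0.10), and COX1, of complex IV, averaged 11750 ± 786 CPM after RA and 20580 ± 1752 CPM in untreated cells (log2 fold change -0.81 ± 0.10). Of 16 stress genes 2 were called higher and 1 lower, which is also no more than that share. ATF3, an immediate stress factor, averaged 132 ± 13.1 CPM after RA and 31.2 ± 7.92 CPM in untreated cells (log2 fold change 2.05 ± 0.17), and PPP1R15A, which ends the stress block on translation, averaged 146 ± 12.2 CPM after RA and 46.9 ± 4.31 CPM in untreated cells (log2 fold change 1.63 ± 0.10). DDIT4, an inhibitor of growth signalling, averaged 39.7 ± 7.34 CPM after RA and 78.0 ± 26.1 CPM in untreated cells, and its call at -1.01 ± 0.24 was lost by DESeq2 (-0.96), with RLE scaling (-0.99), with the replicate block (-0.96), and without RA replicate 3 (-0.88) or untreated replicate 1 (-0.68). HSPA5, a chaperone of the endoplasmic reticulum, averaged 1072 ± 79.95 CPM after RA and 843 ± 71.5 CPM in untreated cells and was not called. Under the read kind covariate ATF3 and PPP1R15A stayed called, and 0 stress genes and 0 mitochondrially encoded genes were called lower.

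Of 20 neural and neural crest markers 10 were tested, 2 were called higher and 3 lower, against 12.5% and 11.9% of all tested genes. Their sum was 41.0, 81.5 and 92.0 CPM after RA and 53.2, 39.8 and 49.2 CPM in untreated cells. STMN2, a tubulin regulator of neurons and endocrine cells, had 19.1, 42.4 and 53.5 CPM after RA and 3.17, 2.21 and 2.76 CPM in untreated cells (log2 fold change 3.75 ± 0.37), and TUBB3, a neuronal tubulin, averaged 18.4 ± 4.52 CPM after RA and 3.35 ± 1.39 CPM in untreated cells. PAX2, a factor of kidney, ear and midbrain, averaged 0.158 ± 0.157 CPM after RA and 9.05 ± 0.372 CPM in untreated cells, and SOX3, a neural and pharyngeal factor, averaged 0.215 ± 0.187 CPM after RA and 5.81 ± 1.68 CPM in untreated cells. NEUROG2, a factor of sensory neurons, had no reads in any of the 6 libraries. Under the read kind covariate 0 members of the list were called higher and 0 lower. Of 12 pluripotency markers 7 were tested, 0 were called higher and 2 lower, near the 24.4% called over all tested genes. LIN28A, an RNA-binding protein of early embryonic cells, averaged 1017 ± 42.5 CPM after RA and 2187 ± 146 CPM in untreated cells (log2 fold change -1.10 ± 0.08), and DPPA4, a chromatin protein of pluripotent cells, averaged 6.60 ± 1.16 CPM after RA and 10.4 ± 2.29 CPM in untreated cells and was not called. POU5F1, the core pluripotency factor, named after its values were seen, averaged 0.232 ± 0.0768 CPM after RA and 0.536 ± 0.335 CPM in untreated cells. With the read kind as a covariate 0 pluripotency markers were called lower.

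The 10 largest rises by fitted log2 fold change, taken from calls whose higher group averaged 5 CPM or more, were SPINK1, MYH6, MYBPC3, CDX2, PDX1 and SMYD1, described above, and 4 secreted or metabolic genes. ARG1, the liver arginase of the urea cycle, had 12.7, 23.3 and 26.9 CPM after RA and no reads in untreated cells, at least 267-fold higher (adjusted p = 3.3e-10). TCN1, a vitamin B12 carrier, had 13.1, 21.6 and 28.1 CPM after RA and no reads in untreated cells, at least 266-fold higher. CXCL6, a neutrophil chemokine, had 10.7, 22.4 and 26.2 CPM after RA and no reads in untreated cells, at least 254-fold higher. CXCL8 (interleukin 8), a chemokine of the same group, had 7.53, 13.2 and 17.2 CPM after RA and no reads in untreated cells, at least 162-fold higher. RA replicate 1 had the least of all 4, and with CHIR99021 and BMP4 none of them exceeded 0.0655 CPM on average.

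The 10 largest falls by fitted log2 fold change included MUC15, a membrane mucin, which had no reads after RA and 4.86, 6.80 and 5.01 CPM in untreated cells, at least 43-fold lower. ANKRD63, an ankyrin-repeat protein, had 0.481, 0.104 and 0.111 CPM after RA and 40.5, 38.3 and 49.4 CPM in untreated cells (log2 fold change -7.64 ± 0.38, adjusted p = 1.1e-13, and -8.48 without RA replicate 1). TLX1, a homeobox factor of pharyngeal arches and spleen, had 3.53, 1.15 and 0.999 CPM after RA and 137, 135 and 157 CPM in untreated cells (log2 fold change -6.38 ± 0.25, and -7.04 without RA replicate 1). TLX1NB, a transcript beside TLX1, had 1 count over the RA libraries and averaged 5.50 ± 1.76 CPM in untreated cells. By the deposited coordinates on chromosome 10, TLX1NB ends at 101131146 and TLX1 starts at 101131300, so they do not overlap. The strand setting is unknown, and whether reads of these neighbours were confused was not tested. KLK10, a secreted serine protease, had 1 count over the RA libraries and averaged 8.04 ± 2.39 CPM in untreated cells, a ratio of 230 (95% counting interval 41 to 9120). PI15, a secreted protein of the CAP family, had 3 counts over the RA libraries and averaged 17.6 ± 5.24 CPM in untreated cells, a ratio of 155 (95% counting interval 53 to 756). FAM107A, an actin-associated protein, had 3 counts over the RA libraries and averaged 8.47 ± 2.93 CPM in untreated cells, a ratio of 56.1 (95% counting interval 19 to 274). VGLL2, NKX2-3 and CYP26C1, above, completed the 10. With CHIR99021 and BMP4 and no RA, several of these were also low: MUC15 averaged 0.858 ± 0.0787 CPM, KLK10 0.439 ± 0.486 CPM, PI15 0.755 ± 0.428 CPM and ANKRD63 2.24 ± 1.04 CPM. TLX1 averaged 57.1 ± 7.94 CPM there, and FAM107A averaged 7.47 ± 0.413 CPM. Under the read kind covariate MUC15, VGLL2, NKX2-3 and CYP26C1 stayed called, ANKRD63, KLK10, PI15 and FAM107A did not, and TLX1 and TLX1NB turned to log2 fold changes of 3.02 (adjusted p = 0.785) and 2.76 (adjusted p = 0.425).

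**Figure D5:**
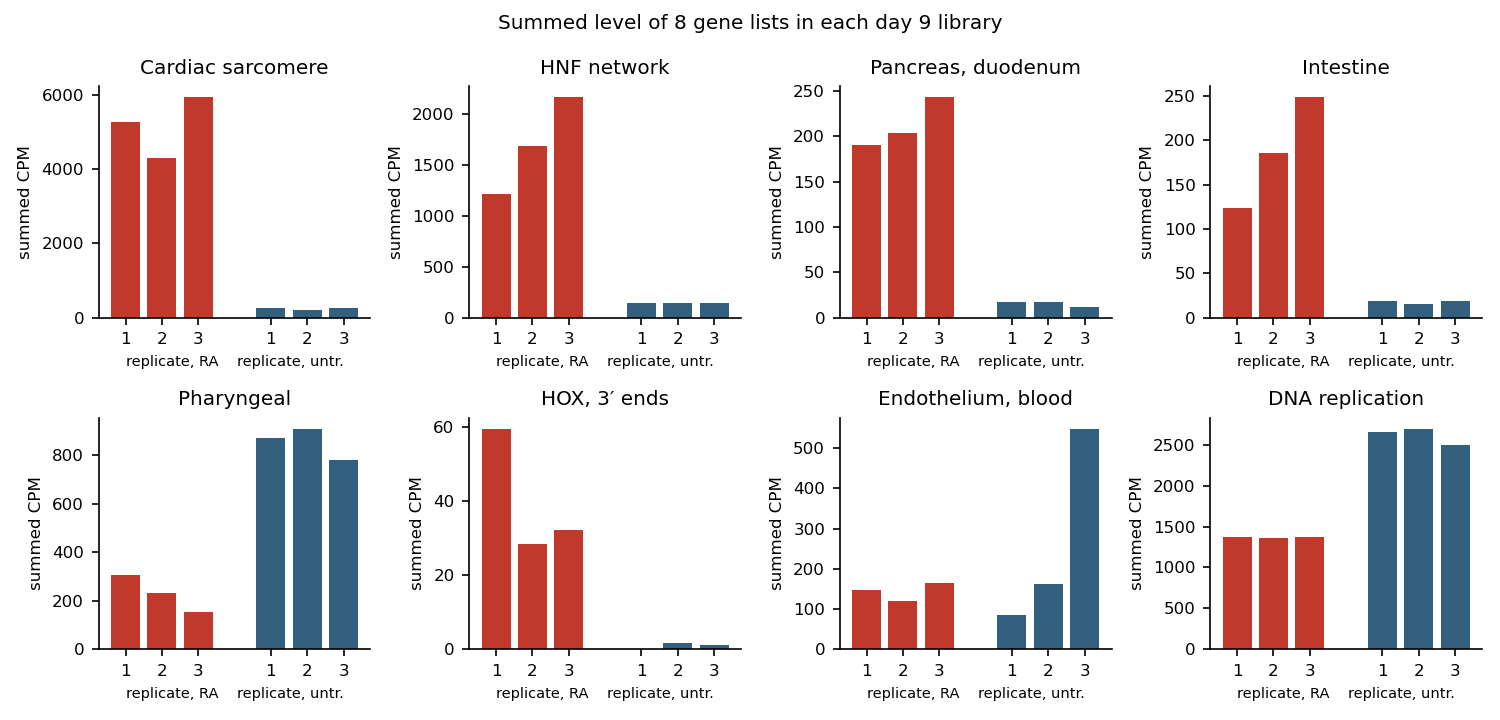
Summed CPM of 8 gene lists in each day 9 library, RA replicates (red) left of untreated replicates (blue), on linear axes that start at 0. RA replicate 3 has the most and RA replicate 1 the least of the HNF network, pancreas and duodenum, and intestine lists, and the pharyngeal list has the opposite order; untreated replicate 3 stands apart in endothelium and blood.

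The 3 RA libraries differed among themselves. RA replicate 3 had the most and RA replicate 1 the least of the HNF network (2171 and 1219 CPM), of pancreas and duodenum (243 and 190 CPM) and of intestine (249 and 124 CPM). For the pharyngeal list RA replicate 1 had the most and RA replicate 3 the least (305 and 152 CPM), and RA replicate 1 also had the most of the 3′ HOX list and of SOX2, TP63, ISL1 and NKX2-5. The sarcomere list had another order, with the most in RA replicate 3 and the least in RA replicate 2. Replicates carry no order, and with 3 libraries no relation between these lists was tested. Leaving out any of the 6 libraries gave 1888 to 2011 genes called higher and 1813 to 1945 called lower.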

How the data were processed

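Bulk RNA-seq was measured in 18 libraries in 6 groups of 3. The authors deposited whole-number counts per gene and TPM values, and STAR 2.7.9 and GRCh38 are named per the submitters' processing notes. Which annotation was used, and whether counting used strand, is not given in the sources used here. TPM matched count per length for 7718 genes with enough reads, scaled per library. Counts (35025 genes; 36 without a symbol, with 0.00102% of counts, were left out) were tested by edgeR 4.0.16 under R 4.3.3 (minimum count 10, TMM scaling, quasi-likelihood test, 1 mean per group over all 18 libraries) and Benjamini-Hochberg adjustment over 15531 genes. A call needed an adjusted p below 0.05 and 2-fold. No 2 replicates agreed within sampling noise. Same-numbered day 9 libraries did not deviate together, so numbers were not used as pairs. Bounds (3 counts over a group at 0) and 95% intervals cover counting error only, and precision follows from 5.79 M to 25.37 M counts per library.

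Members and lists were chosen with earlier results of these data known. Named genes were a fixed set of known roles, the 10 largest rises and falls at 5 CPM or more without overlap, and up to 6 called and 2 uncalled members per list; others are marked as chosen after their values were seen. Alternatives were RLE and upper quartile factors, no filter and a minimum of 30, the 6 libraries alone, a replicate block, each library left out, adjusted p alone, a read kind covariate, no pseudogenes, DESeq2 1.42.0, and limma 3.58.1 on log2(TPM + 1). The code was tested on simulated data. Promoters came from RefSeq (GRCh38.p14), and all columns with a sample were used. A few members of the lists are counted but not reported here.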

Additional observations from a re-analysis of the deposited data

Results flagged for a closer look

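The response to RA differed between day 6 and day 9, by the interaction term of the edgeR fit, for 8 of 14 genes. The day 9 effect minus the day 6 effect, in log2, was -7.99 for CYP26A1, -2.68 for DHRS3, -0.77 for RARB and -2.78 for IHH, and it was 7.29 for PAX9, 2.20 for OTX2, 3.35 for COL1A1 and 3.01 for HNF4A. The term passed for 50.9% of all tested genes, and 2 of the untreated day 6 libraries had a mixed read kind. With read kind as a covariate, whose effect came from those 2 libraries, 12 of the 14 genes kept their outcome. Of the others, 1 of the 8 no longer passed, and IGF2 changed sign without passing. A further 4 genes passed by DESeq2, and 4 on log2(TPM + 1). The groups of 3 libraries were too small for a test of single outlying libraries.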

How the results depend on the processing

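By setting, genes called higher and lower, against 1939 and 1852, numbered 2002 and 1777 with RLE factors, 1746 and 2148 with upper quartile factors, 2330 and 2157 with no filter, 1621 and 1459 with a minimum count of 30, 1721 and 1642 with the 6 libraries alone, 1973 and 1765 by DESeq2, and 1749 and 1624 without pseudogenes. They were 5054 and 5051 by adjusted p alone, 499 and 435 with the read kind covariate, and 2311 and 765 on log2(TPM + 1). With the replicate block 1930 were higher and 1840 lower, and same-numbered libraries correlated at -0.079, -0.048 and 0.03, so the numbers do not pair them.

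These values reversed. The RA-by-day difference of IGF2 (-0.02) was 0.01 with RLE factors, 0.39 with the read kind covariate, and -0.48 to 0.25 with each library left out, reversing at 0.03, 0.06 and 0.25. That of HOXB2 (0.77) was -0.56 (without untreated replicate 1) to 2.55 with each library left out and -1.52 on log2(TPM + 1). With the read kind covariate the log2 fold change was -39.99 for SPINK1, which is not estimable, -4.95 for HOXB1, -4.83 for NPPA, -0.93 for HNF4G, -2.26 for KRT7, -5.69 for ALDH1A1, -0.67 for ID3, -0.59 for LGR4, 2.76 for TLX1NB, 3.02 for TLX1, 0.06 for GRHL2, 0.53 for CLDN4 and 2.65 for LEF1, none of them past the threshold. The cause was not tested. Depth limits genes with few reads, such as HOXB1, RBP4 and NKX2-1.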
